A study of Mus musculus with 9 samples.

Results

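Acute-phase, antimicrobial and complement genes were examined in RAW264.7 cells, a mouse macrophage line. They comprised 10 genes of the 54532 in the deposited table, chosen by name: Lcn2, Saa3, Slpi, Hp, Ptx3, C3, Cfb, Cfp, C1qa and C1qb. RNA-seq had been performed on 9 libraries in 3 groups of 3, to see how carbon dots derived from Glycyrrhiza (licorice) with superoxide dismutase-like activity (G-CDs) change the response of these cells to LPS, a glycolipid of the bacterial outer membrane. The control group was untreated. The LPS group received LPS at 1 μg/ml, and the LPS + G-CDs group received the same LPS together with G-CDs at 400 μg/ml, both for 6 h. All 9 libraries are of this line, with genotype WT and tissue Ascites in the labels, the fluid the line was once derived from. The third group bears G-CDs in its titles only, since its treatment label names LPS alone. A group given G-CDs without LPS was not analysed here, and no label says whether replicates were separate cultures, so the p-values measure the spread between these libraries, which may be technical.

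Acute-phase proteins are made in large amounts when tissue is infected or injured, mostly by the liver but also by macrophages. Lipocalin-2, serum amyloid A and pentraxin 3 bind bacterial iron carriers, lipids or surfaces, and protease inhibitors such as SLPI protect tissue from the enzymes of neutrophils. Complement is a cascade of plasma proteins that coats microbes for uptake. C1q starts its classical pathway, factor B and properdin build and hold the alternative pathway convertase, and both routes meet at C3.

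Levels are given as FPKM, the fragments on a gene scaled to its exon length and to the size of the library. Multiplied back by gene length, the FPKM values were whole numbers of reads to within 0.05 reads for 100% of values, and 14752400 to 17312255 reads per library lay on genes. The macrophage label was checked first. Of 10 macrophage markers, 9 reached 1 FPKM in at least 3 libraries, and Mertk, a receptor for the uptake of dead cells, had 0 reads throughout. The markers summed to between 2660 and 3660 FPKM in control cells, 3870 and 4090 FPKM with LPS, and 3250 and 5340 FPKM with LPS + G-CDs. None of 11 neutrophil markers reached 1 FPKM in 3 libraries, and 7 of them, among them Ly6g, Elane, Mpo and Ltf, had 0 reads in all 9. Their sum ran from 0.365 to 0.958, 0.198 to 1.37 and 0.797 to 2.44 FPKM in the 3 groups in the same order. The 10 hepatocyte markers summed to at most 0.19 FPKM in any library, with Apob, Ttr, Serpina1a, Fga and Cyp3a11 at 0 reads. The 10 lymphocyte and fibroblast markers summed to at most 0.52 FPKM.

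A stretch before the start of Saa3, Slpi and C3 is shown, since the RNA of these members differed between untreated and LPS-treated cells. The RefSeq window before the start of each also holds a long stretch outside the annotated exons of the gene itself. Exons of other genes were not checked. For Saa3 the stretch ends 25 bases before the start, since the annotated gene, which begins upstream of this RefSeq start, covers the bases after it, and for Slpi it lies inside the annotated gene, which also begins further upstream. The sequences are from RefSeq, build GRCm38.p6, printed 5′ to 3′ on the minus strand on which all 3 genes lie, and capitals mark matches to the letters of a C/EBP site. C/EBP proteins are transcription factors of the acute-phase response and bind sites close to TTGCNNAA, which was searched on both strands (reverse complement TTNNGCAA).
Saa3 (chr7:46715701-46715926): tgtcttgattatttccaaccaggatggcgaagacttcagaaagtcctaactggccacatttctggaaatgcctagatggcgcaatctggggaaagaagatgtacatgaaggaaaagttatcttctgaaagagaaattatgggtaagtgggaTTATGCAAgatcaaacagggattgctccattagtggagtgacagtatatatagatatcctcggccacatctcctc
Slpi (chr2:164356508-164356757): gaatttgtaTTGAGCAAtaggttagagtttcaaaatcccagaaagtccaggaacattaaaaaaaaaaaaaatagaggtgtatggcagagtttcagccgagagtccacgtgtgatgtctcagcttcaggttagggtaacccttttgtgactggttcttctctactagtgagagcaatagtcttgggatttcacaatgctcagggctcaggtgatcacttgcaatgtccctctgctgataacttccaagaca
C3 (chr17:57228137-57228386): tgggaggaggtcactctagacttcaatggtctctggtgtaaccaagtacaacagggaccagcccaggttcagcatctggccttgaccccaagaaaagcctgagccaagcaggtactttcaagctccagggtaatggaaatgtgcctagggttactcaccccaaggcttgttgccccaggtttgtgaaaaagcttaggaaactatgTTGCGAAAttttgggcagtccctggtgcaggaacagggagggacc

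Of the 10 members, 7 were matched to a RefSeq window of 250 bases before the start. C/EBP letters occurred in 5 of them, against 9.56% of all 32851 windows of this length. They lay 99 bases before the start of Saa3, 241 before Slpi, 45 before C3, 57 before Ptx3 and 216 before Lcn2, where the match (TTGCTCAA) falls in an exon of another Lcn2 transcript. The letters of a STAT site, TTCNNNGAA, which reads the same on both strands, were in none of the 7 windows and in 7.02% of all. These are matches of letters in a short window, and binding was not measured.

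In untreated cells the order of mean levels was Cfp, Slpi, C3, Saa3, Hp and Lcn2, and Ptx3, Cfb, C1qa and C1qb had no read in any control library. Properdin mRNA stood at 107 ± 22 FPKM and Slpi at 21.2 ± 6.91 FPKM, while C3 was at 1.23 ± 0.124, Saa3 at 0.552 ± 0.0636 and Lcn2 at 0.115 ± 0.0552 FPKM (SD, n = 3). No 2 neighbours among Cfp, Slpi, C3 and Saa3 overlapped in their replicate values. With LPS, Cfp remained above Slpi (103.5 to 112.3 FPKM) in every library, Saa3 came next at 34 ± 5.63 FPKM and Lcn2 at 15.35 ± 0.555 FPKM, and C3 was lowest of the 5 at 3.91 ± 0.457 FPKM. With LPS + G-CDs the replicate ranges of Slpi and Cfp overlapped, as did those of Saa3 and Lcn2. Within each LPS + G-CDs library, however, Slpi (118.5, 155.7 and 264.8 FPKM) lay above Cfp (103.3, 147.1 and 200.2 FPKM). Saa3 likewise lay above Lcn2 in each, by the least in replicate 1 (6.64 against 6.14 FPKM). The deposited length of a gene is that of all its annotated exons merged, 2606 bases for Saa3 against 555 in its first coding transcript (4.7 times) and 2623 against 915 for Lcn2 (2.87 times), but 1180 against 876 for Slpi, 1736 against 1636 for Cfp and 5143 against 5136 for C3. The FPKM of Saa3 and Lcn2 are therefore low relative to those of the other 3 by up to these factors, and their places in the order depend on the length used.

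**Figure D1:**
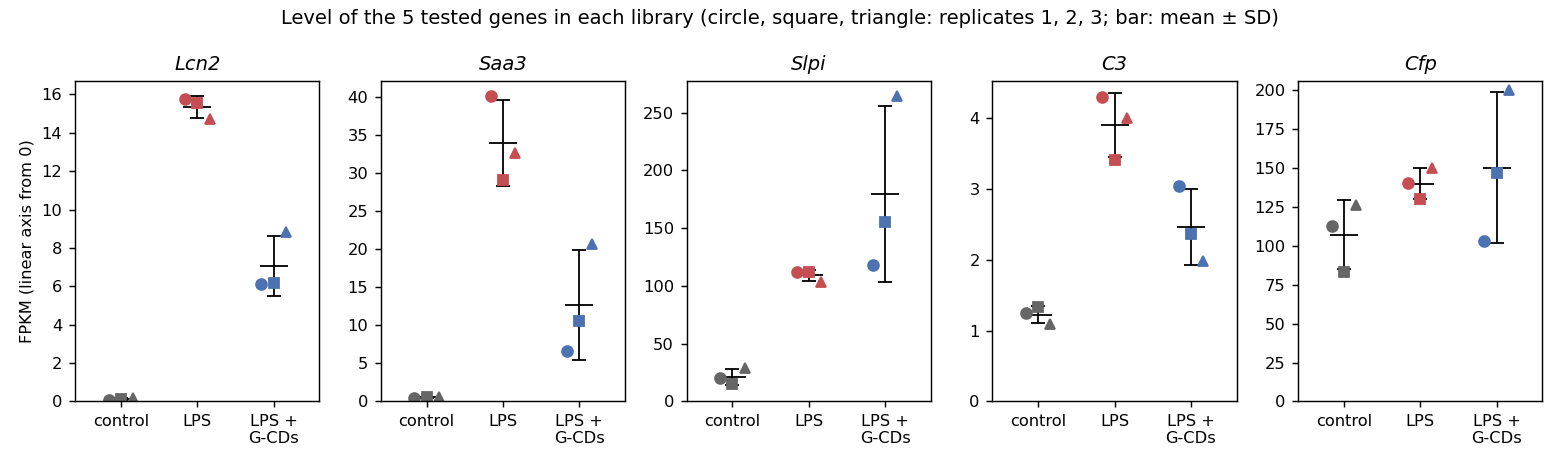
The level of Lcn2, Saa3, Slpi, C3 and Cfp in FPKM (linear vertical axes from 0, a different scale in each panel) is plotted for control, LPS and LPS + G-CDs, with circles, squares and triangles for replicates 1, 2 and 3 and bars for mean ± SD. Lcn2, Saa3 and C3 lay lower with LPS + G-CDs than with LPS in all 3 replicates, Slpi lay higher, and Cfp overlapped.

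To see which of these genes respond to LPS, LPS-treated cells were compared with control cells. Transcripts of the iron-carrier-binding protein lipocalin-2, the acute-phase protein serum amyloid A3 and the protease inhibitor SLPI rose, as did C3 mRNA, whereas no change of properdin mRNA passed the test. Of the 10 members, 5 reached 1 FPKM in at least 3 libraries and were tested among 11585 genes with limma on log2(FPKM + 1), in which a fold change understates that of a gene with low values. At a Benjamini-Hochberg adjusted p under 0.05, 4 of these 5 were higher with LPS, where 15.8% of all tested genes were higher and 15.6% lower. Lcn2 and Saa3 passed the filter only through the libraries given LPS, so the 4 are not a sample of all members. All 5 had every LPS library above every control library, which held for 27.4% of the tested genes. The calls of the members were the same on each scale tried, whereas the whole table was not: 1827 genes were higher and 1803 lower with LPS on the deposited scale, against 1003 and 3059 after rescaling to TPM, which shifted the median of all genes by -0.23 on the log2 scale.

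Lcn2 (lipocalin-2, ENSMUSG00000026822, chromosome 2, 32384633 to 32388252 in GRCm38, minus strand, 6 exons) binds bacterial siderophores and so withholds iron. It had 3, 5 and 8 reads in the 3 control libraries, or 0.061, 0.112 and 0.171 FPKM. With LPS it had 571, 564 and 561 reads, or 15.8, 15.6 and 14.7 FPKM. The groups were far apart and the LPS replicates close together. The ratio of the means was 134, and the counting error of the 16 control reads alone (exact Poisson 95% interval) places it between 82.4 and 234. On the log2(FPKM + 1) scale the rise was 3.88 (standard error 0.14, limma adjusted p = 1.8e-07). Intervals of this kind cover counting error only.

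Saa3 (serum amyloid A3, ENSMUSG00000040026, chromosome 7, 46711998 to 46715700, minus strand) is the serum amyloid A gene known for expression outside the liver, in macrophages and fat. It was at 0.512, 0.518 and 0.625 FPKM in control cells, from 23 to 29 reads. With LPS it was at 40.1, 29.1 and 32.7 FPKM, from 1047 to 1446 reads. The ratio of means was 61.6, with an interval of 49.3 to 78.1 from the control reads alone, and the log2 rise was 4.48 (standard error 0.32, limma adjusted p = 1.1e-05). Saa1 and Saa2, the circulating liver forms, had 0 reads in all 9 libraries. Of the 50-base words of the first coding transcript of Saa3 (555 bases), 1.8% also occur in other genes, most often in Saa1. The remaining exonic bases of Saa3 were not searched.

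Slpi (secretory leukocyte protease inhibitor, ENSMUSG00000017002, chromosome 2, 164354070 to 164389095, minus strand) inhibits neutrophil elastase. Control cells already held 20 (replicate 1), 15 and 28.7 FPKM, and LPS-treated cells 111.6, 112.3 and 103.5 FPKM. The LPS values lay within 10 FPKM of each other and above the highest control library. The ratio of means was 5.14 and the log2 rise 2.36 (standard error 0.30, limma adjusted p = 0.00044).

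C3, the central protein of the complement cascade (ENSMUSG00000024164, chromosome 17, 57203970 to 57228136, minus strand, 41 exons), was at 1.25, 1.34 and 1.09 FPKM in control cells, from 100 to 121 reads. It reached 4.31, 3.41 and 4.01 FPKM with LPS, from 242 to 306 reads. The ratio of means was 3.18 and the log2 rise 1.14 (standard error 0.15, limma adjusted p = 4e-04). All 3 LPS libraries were more than 2 FPKM above the highest control library.

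Cfp (properdin, ENSMUSG00000001128, chromosome X, 20925454 to 20931555, minus strand, 9 exons) stabilises the alternative pathway convertase and is made by myeloid cells. It was at 112.6, 83.2 and 126.2 FPKM in control cells and at 140.3, 130 (replicate 2) and 149.9 FPKM with LPS. The groups did not overlap but lay close. The ratio of means was 1.3, and the log2 difference of 0.40 had a 95% interval of -0.16 to 0.96 (limma adjusted p = 0.26), which spans a small fall and nearly a doubling.

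The other 5 members stayed under the filter and were not tested. Hp, which encodes the hemoglobin-binding protein haptoglobin (chromosome 8, 109575128 to 109579172), had 8, 4 and 8 reads in control cells, 3, 2 and 0 with LPS and 4, 3 and 2 with LPS + G-CDs, 34 in all. In FPKM the control libraries (0.146 to 0.28) lay above the LPS libraries (0 to 0.135) without overlap, but the nearest 2 differed by 1 read, 4 against 3, and the difference was not tested. With LPS + G-CDs the values overlapped both. Ptx3, encoding the soluble pattern recognition molecule pentraxin 3, had 1 read, in LPS + G-CDs replicate 3. C1qa and C1qb, encoding chains of C1q, had 0 reads in all 9 libraries, as did C1qc, the gene of the remaining chain. A count of 0 allows up to 3 reads per library, which in the library where it is highest corresponds for C1qa to 0.169 FPKM in control cells, 0.209 with LPS and 0.205 with LPS + G-CDs, and for C1qb to 0.162, 0.2 and 0.196 FPKM. For Ptx3, the same 3 reads would be at most 0.0657, 0.081 and 0.0796 FPKM.

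Cfb, encoding the convertase protease factor B (chromosome 17, 34856374 to 34862518), had 1 read, in LPS replicate 2. That value cannot be taken as its level. Of its 2825 exonic bases, 2246 (79.5%) are also exons of Gm20547, a readthrough gene on the same strand, leaving 579 bases of its own. Of the 50-base words of its first coding transcript, 81.8% occur in other genes, most often in Gm20547. Gm20547 too had 0 reads in all libraries. How fragments shared by both genes were counted is not given in the sources used here. A rule that drops them would leave only these 579 bases to count from.

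**Figure D2:**
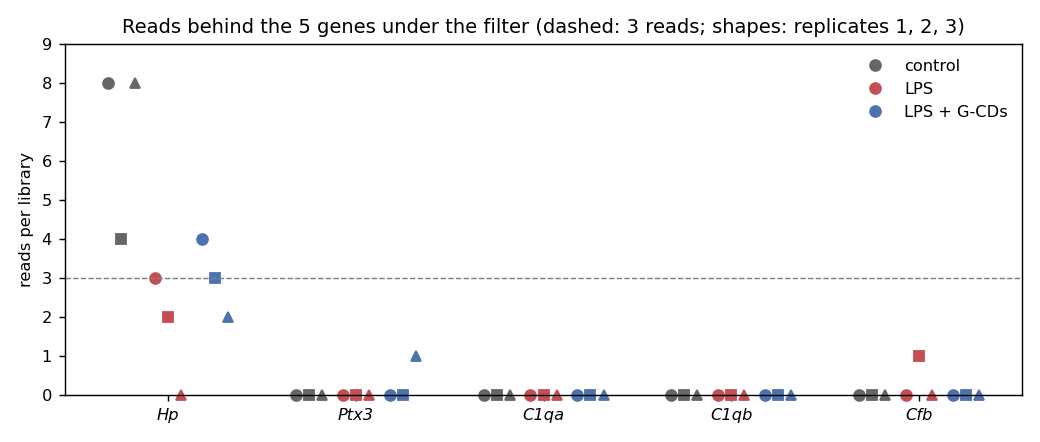
Reads per library (vertical axis) are plotted for Hp, Ptx3, C1qa, C1qb and Cfb, colored by group, with shapes for replicates 1, 2 and 3 and a dashed line at 3 reads. Only Hp rises above the line, with at most 8 reads, and C1qa and C1qb lie at 0 in every library.

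To see which of these responses differ when G-CDs are present, LPS + G-CDs cells were compared with LPS-treated cells. Lcn2 fell, and it was the only member to pass an adjusted p of 0.05, out of 5 tested. Of all tested genes 0.492% passed, 0.242% lower and 0.25% higher. Saa3 and C3 were also lower in all 3 LPS + G-CDs libraries than in any LPS library without passing the test, Slpi was higher in all 3 without passing, and Cfp overlapped. Values below or above every LPS library were found for 15% and 12.9% of tested genes. The median log2 change of all tested genes was 0.02. In bulk RNA, fewer cells expressing a gene and less RNA per cell cannot be told apart.

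Lcn2 was at 6.14, 6.17 and 8.85 FPKM with LPS + G-CDs, from 233, 269 and 326 reads, which is 40%, 40.2% and 57.7% of the LPS mean of 15.35 FPKM. The 3 libraries lay well below the LPS libraries, and replicate 3 was the least reduced. The group mean was 7.055 ± 1.55 FPKM (SD, n = 3), 46% of that with LPS, and the log2 change was -1.04 (standard error 0.14, 95% interval -1.36 to -0.71, limma adjusted p = 0.023). The direction held in all 18 alternative analyses, with log2 changes of -1.27 to -0.96 and limma adjusted p from 0.0014 to 0.14. The call was lost in 8 of them. It was lost without LPS replicate 1 or LPS replicate 2 (adjusted p = 0.14 for each in limma), without LPS replicate 3 (0.09), without LPS + G-CDs replicate 2 (0.14) and without control replicate 2 (0.057), as well as with a pseudocount of 0.1 FPKM (0.12), without a filter (0.055) and with the 6 libraries alone (0.077).

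Saa3 was at 6.64, 10.6 and 20.7 FPKM with LPS + G-CDs, from 250, 460 and 758 reads, or 19.5%, 31.3% and 60.9% of the LPS mean. All 3 were below the lowest LPS library (29.1 FPKM), but they differed from each other by more than the LPS libraries did. The mean of 12.7 ± 7.25 FPKM (SD, n = 3) was 37.2% of the LPS mean. The log2 change was -1.48 (standard error 0.32, 95% interval -2.21 to -0.75) with an unadjusted limma p of 0.0013 and an adjusted p of 0.13. Without LPS + G-CDs replicate 3 it was -1.88 (limma adjusted p = 0.013) and without LPS + G-CDs replicate 1 -1.13 (0.054), and it was on the TPM scale -1.70 (0.047) and with the gene-length trend of each library removed -1.63 (0.034). The adjusted p over the 18 alternatives ran from 0.013 to 0.43, and the direction was downward in each.

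C3 was at 3.04, 2.36 and 1.98 FPKM with LPS + G-CDs, from 143 to 226 reads, against 3.41 to 4.31 FPKM with LPS. These are 77.8%, 60.5% and 50.6% of the LPS mean, all below the lowest LPS library. The log2 change was -0.51 (standard error 0.15, 95% interval -0.84 to -0.18) with an unadjusted limma p of 0.0065 and an adjusted p of 0.22. No alternative in which C3 was tested gave a call, with adjusted p from 0.054 to 0.55.

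Slpi was at 118.5, 155.7 and 264.8 FPKM with LPS + G-CDs, that is 109%, 143% and 243% of the LPS mean. The lowest of these lay just above the highest LPS library (112.3 FPKM) and the highest stood far above the other 2. The log2 change was 0.63 with a 95% interval of -0.06 to 1.32 (standard error 0.30, limma adjusted p = 0.33), and it ranged from 0.31 without LPS + G-CDs replicate 3 to 0.89 without LPS + G-CDs replicate 1. The ratio of Slpi FPKM to Lcn2 FPKM, which does not depend on how libraries are scaled, was 7.09, 7.21 and 7.03 in the LPS libraries and 19.3, 25.2 and 29.9 in the LPS + G-CDs libraries. This ratio was chosen after the values were seen and is given as a description. It could not overlap between these groups, since every LPS + G-CDs library lay above every LPS library for Slpi and below for Lcn2. In the control libraries it was 328, 134 and 167, with 3 to 8 reads of Lcn2.

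Cfp was at 103.3, 147.1 and 200.2 FPKM with LPS + G-CDs, on both sides of the LPS values of 130 to 149.9 FPKM. The log2 difference was 0.05 with a 95% interval of -0.51 to 0.61 (limma adjusted p = 0.91). Its sign depended on the setting and turned negative on the TPM scale (-0.12), with the length trend removed (-0.17), without LPS replicate 2 and without LPS + G-CDs replicate 3 (-0.18).

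The LPS + G-CDs replicates differed in a trend with gene length, and its size moved with the values above. At the length of Saa3 the smoothed trend, relative to the LPS mean on the log2 scale, was 0.00, 0.15 and 0.31 in LPS + G-CDs replicates 1, 2 and 3, at that of Lcn2 0.00, 0.15 and 0.31, at that of Slpi -0.03, 0.19 and 0.49 and at that of Cfp -0.01, 0.20 and 0.48. At the length of C3, the longest of the 5, it was 0.00, -0.05 and -0.11. Saa3, Slpi and Cfp were highest in replicate 3 and C3 lowest there. With the trend removed, 2 members passed the test in LPS + G-CDs against LPS, Lcn2 and Saa3. Beyond that fit, the part of the trend in these values was not tested.

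**Figure D3:**
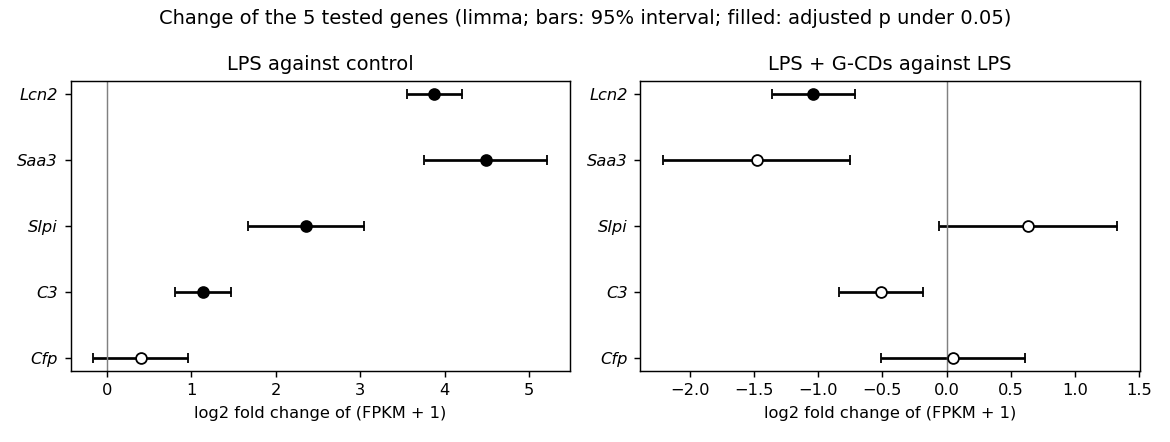
The log2 fold change of FPKM + 1 (horizontal axes, different scales) with its 95% interval from limma is plotted for the 5 tested members, on the left for LPS against control and on the right for LPS + G-CDs against LPS, with filled points at an adjusted p under 0.05. The comparisons share the LPS libraries, and Lcn2 is the only filled point on the right, at -1.04.

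Both comparisons use the same LPS libraries, so their values are set side by side only. Against control cells, LPS + G-CDs cells still held 61.5 times the Lcn2 level, 22.9 times that of Saa3, 8.47 times that of Slpi and 2 times that of C3, where the ratios with LPS alone were 134, 61.6, 5.14 and 3.18. At an adjusted p under 0.05, 4 of the 5 tested members were higher than in control, where 12.8% of all tested genes were. Lcn2 and Saa3 passed the filter only through libraries given LPS, with or without G-CDs, so this count is a description. Of all tested genes, 1488 were higher and 1439 lower in this comparison on the deposited scale, against 761 and 3218 on the TPM scale. The log2 rise was 2.84 for Lcn2 (limma adjusted p = 1.3e-06), 3.004 for Saa3 (0.00017), 2.99 for Slpi (0.00013) and 0.63 for C3 (0.013), and that of Cfp was 0.45 with a 95% interval of -0.11 to 1.01 (0.23). The C3 call was lost on the TPM scale (0.46, limma adjusted p = 0.19) and with the 6 libraries alone (0.05). Without LPS + G-CDs replicate 1, Cfp passed (0.69, limma adjusted p = 0.044).

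The genes whose log2(FPKM + 1) pattern was most like that of a member were found over the 9 libraries, among all tested genes. For Lcn2 they were Lta, which encodes the cytokine lymphotoxin alpha (Pearson's r = 0.998), Irf8, a transcription factor of myeloid cells (0.997), and Cish, a suppressor of cytokine signaling (0.997). For Saa3 the nearest was Slfn1 (0.990), for Slpi Btg3 (0.997), for C3 Spn (0.996) and for Cfp Wdr55 (0.978). The 9 libraries form 3 groups, so any gene with like group means gives a high r. An r over 0.95 was reached by 396 genes for Lcn2, 156 for Saa3, 270 for Slpi, 212 for C3 and 25 for Cfp.

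To place the members among related genes, 126 further genes in 5 lists were examined, of which 52 were tested. With LPS, 32 of the 52 were higher and 8 lower than in control, where 15.8% and 15.6% of all tested genes were, with a median log2 change of 0.75 against 0.02 for all tested genes. With LPS + G-CDs against LPS, 1 was higher and 4 were lower, where 0.25% and 0.242% of all tested genes were, with a median of -0.14 against 0.02. These shares are the background for the counts of each list. Of the 32 higher with LPS, 8 stayed under 1 FPKM in every control library and passed the filter only through libraries given LPS, as Lcn2 and Saa3 did, and of the 4 lower with G-CDs, Cp and Fpr2 passed it only through the LPS group. The list counts and medians are therefore descriptions. Genes were named by rule from the largest changes of each list with LPS and from every call with G-CDs. Cebpb, Cebpd and Cebpe were added outside this rule, beside Cebpa.

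Complement components other than the members were few in these cells. Of 22 listed, 5 were tested, and with LPS 1 was higher, 2 were lower and 2 did not pass (median log2 change -0.51). Fcna, encoding the pattern recognition protein ficolin A, fell from 5.12 to 2.12 FPKM (-0.97, limma adjusted p = 0.007). Masp2, a protease of the lectin pathway, rose from 2.32 to 3.22 FPKM (0.35, limma adjusted p = 0.047), a call lost in 10 of 17 alternatives, among them those without control replicate 1 or 2, without any 1 LPS library and without LPS + G-CDs replicate 2 (adjusted p of 0.082 to 0.14), and on the TPM scale (0.45). With G-CDs 0 of the 5 passed.

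C3ar1 and C5ar1, receptors of the complement fragments C3a and C5a, rose with LPS, while C5ar2, another C5a receptor, stayed under the filter and was not tested. Of 21 receptors and regulators, 9 were tested, and with LPS 5 were higher, 0 lower and 4 did not pass. C5ar1, the receptor of the C5a fragment, was at 6.24, 7.18 and 7.1 FPKM in control cells and 137.5, 129.4 and 141.6 FPKM with LPS (log2 change 4.13, limma adjusted p = 6e-08). C3ar1, the receptor of C3a, went from 0.867, 0.9 and 0.965 to 18.9, 17.8 and 17.5 FPKM (3.32, limma adjusted p = 5.8e-08). With LPS + G-CDs they were at 117.3 ± 14.3 and 14.2 ± 1.11 FPKM (SD, n = 3), and 0 of the 9 passed against LPS. Itgam, a subunit of complement receptor CR3, went from 8.59 to 12.5 FPKM (0.53, limma adjusted p = 0.048), a call lost in 12 of 18 alternatives, including those without control replicate 1 or 2, without any 1 LPS library and without any 1 LPS + G-CDs library (adjusted p of 0.051 to 0.14), and on the TPM scale (0.27).

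Of 31 acute-phase proteins and their receptors, 6 were tested. With LPS 4 were higher, 1 lower and 1 did not pass, and with G-CDs 3 of the 6 fell. Cp and Fpr2, 2 of these 3, reached 1 FPKM in the LPS group only and were tested because they were high there, so the count of falls is a description and supports nothing about the list. Cd14, the LPS co-receptor, rose from 436 ± 53.5 to 2292 ± 69.5 FPKM with LPS (2.40, limma adjusted p = 8.3e-05). Slc22a17, a receptor for lipocalin-2, fell from 1.5 to 0.756 FPKM with LPS (-0.50, limma adjusted p = 0.027), a call lost without a filter (adjusted p = 0.056) and without control replicate 3 or any 1 LPS library (0.073 to 0.086). The 3 genes that fell with G-CDs were Cp, Fpr2 and Il1rn.

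Cp, encoding the copper-carrying ferroxidase ceruloplasmin, had 27, 25 and 27 reads in control cells, 174, 201 and 184 with LPS, and 44, 44 and 23 with LPS + G-CDs. In FPKM it was 1.32, 1.52 and 1.32 with LPS and 0.318, 0.277 and 0.171 with LPS + G-CDs, below every LPS library and above the control values of 0.151 to 0.159. On the log2(FPKM + 1) scale it changed by -0.93 relative to LPS (standard error 0.13, limma adjusted p = 0.023). That call was lost in 11 of 17 alternatives, with adjusted p of 0.055 to 0.14, including those without control replicate 2, any 1 LPS library, or LPS + G-CDs replicate 2 or 3. The fall was -2.46 to -0.68 over the 17.

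Fpr2, a formyl peptide receptor that also binds serum amyloid A, had 66, 62 and 77 reads with LPS and 8, 5 and 15 with LPS + G-CDs, or a mean of 3.75 ± 0.316 against 0.494 ± 0.302 FPKM (SD, n = 3). Control libraries held 0, 3 and 0 reads. Its log2 change against LPS alone was -1.68 (standard error 0.17, limma adjusted p = 0.004) and its call was kept in 16 of 17 alternatives and lost with a pseudocount of 0.1 FPKM (adjusted p = 0.091). Il1rn, the natural antagonist of the interleukin-1 receptor and an acute-phase protein, went from 1.15 ± 0.424 FPKM in control cells to 134.3 ± 5.52 with LPS and 51.2 ± 4.35 with LPS + G-CDs (SD, n = 3). Relative to LPS alone this was a log2 change of -1.38 (standard error 0.16, limma adjusted p = 0.009), kept in 13 of 18 alternatives and lost with a pseudocount of 0.1 FPKM (adjusted p = 0.079), on the TPM scale (0.057) and without LPS replicate 1, LPS replicate 2 or LPS + G-CDs replicate 2 (0.067 to 0.074).

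Of 29 antimicrobial and granule proteins, 10 were tested. With LPS 7 were higher, 2 lower and 1 did not pass, and with G-CDs 1 was higher and 1 lower. Acod1, which makes itaconate, rose from 2.31 ± 0.395 to 2624 ± 46 FPKM with LPS (9.64, limma adjusted p = 2e-09). Nos2, the inducible nitric oxide synthase, rose from 1.01 to 105.2 FPKM (5.73, limma adjusted p = 6.8e-08), and Zbp1, a sensor of nucleic acids, from 0.126 to 17.7 FPKM (4.05, limma adjusted p = 2.4e-08). Lyz2, the lysozyme of macrophages, fell from 1762 ± 284.5 to 947.5 ± 31.9 FPKM with LPS (SD, n = 3; -0.88, limma adjusted p = 0.024), a call lost without a filter (adjusted p = 0.16) and without control replicate 3 or any 1 LPS library (0.072 to 0.085). Ang, encoding angiogenin, fell from 1.67 to 0.413 FPKM (-0.91, limma adjusted p = 0.0013).

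Slc11a1, encoding the metal transporter NRAMP1 of phagosomes, was the gene that rose with G-CDs. It was at 12.9, 12.5 and 13.4 FPKM in control cells, 16.8, 15.4 and 17 (replicate 3) with LPS, and 30.7, 30.8 and 32.4 with LPS + G-CDs. These 3 libraries agreed closely and lay above all others. The change against LPS was 0.89 (standard error 0.10, limma adjusted p = 0.0068), kept in 14 of 18 alternatives and lost on the TPM scale (adjusted p = 0.088) and without LPS replicate 1, LPS replicate 2 or LPS + G-CDs replicate 2 (0.067 to 0.074). Nos2 fell to 62, 47.8 and 38.7 FPKM with G-CDs from 114.3, 104.9 and 96.5 with LPS (-1.10, standard error 0.18, limma adjusted p = 0.046). Its call was lost in 13 of 18 alternatives, among them those without any 1 control library, any 1 LPS library, or LPS + G-CDs replicate 2 or 3 (adjusted p of 0.057 to 0.25).

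Of 24 upstream regulators, meaning cytokines, receptors and transcription factors known to drive such genes, 22 were tested, and with LPS 15 were higher, 3 lower and 4 did not pass. Il1b, an interleukin that induces the acute-phase response, had 0, 1 and 0 reads in control cells and 418.1, 432.4 and 420.2 FPKM with LPS (8.71 on the log2 scale, limma adjusted p = 2.1e-09). Socs3, an inhibitor of STAT3 signaling, rose from 6.07 to 282.5 FPKM (5.33, limma adjusted p = 2.8e-08), and Nfkbiz, the NF-kB cofactor IκBζ needed for Lcn2 induction, from 3.33 to 163.2 FPKM (5.25, limma adjusted p = 7.6e-08). Cebpa fell from 9.22 to 3.88 FPKM (-1.06, limma adjusted p = 0.00084) and Il6ra, the receptor subunit for interleukin-6, from 11.6 to 4.8 FPKM (-1.10, limma adjusted p = 0.0022). Among the other C/EBP genes of the list, Cebpd rose from 5.05 to 39.6 FPKM (2.74, limma adjusted p = 2.3e-05). Cebpb, at 49.1 FPKM in control and 90.1 with LPS (0.875, limma adjusted p = 0.052), did not pass. Neither did Cebpe, at 5.49 and 4.38 FPKM (-0.285, limma adjusted p = 0.45). With G-CDs 0 of the 22 passed, and the median change was -0.09. Nfkbiz was at 111.9, 94.3 and 72.3 FPKM with LPS + G-CDs, below its LPS values of 163.7, 167.9 and 158, without passing the test.

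**Figure D4:**
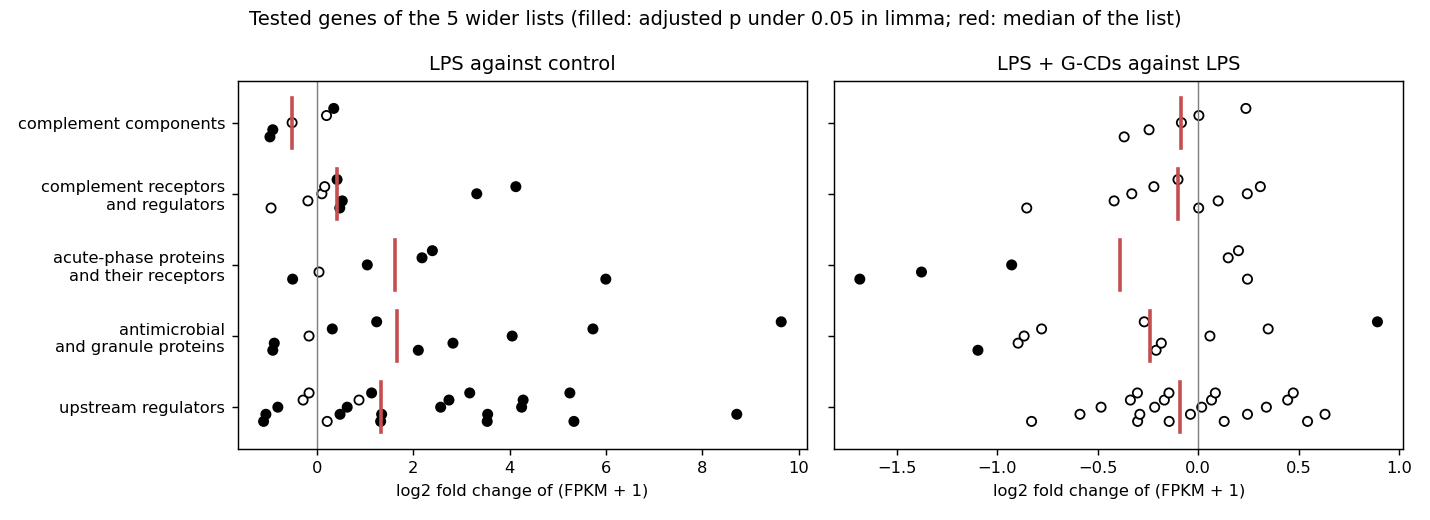
The log2 fold change of FPKM + 1 (horizontal axes, different scales) is plotted for each tested gene of the 5 lists, on the left for LPS against control and on the right for LPS + G-CDs against LPS, filled at an adjusted p under 0.05 in limma and with a red line at the median of each list. With LPS 40 of 52 points are filled, and with G-CDs 5 are, the falls of Cp, Fpr2, Il1rn and Nos2 and the rise of Slc11a1.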

How the data were processed

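The authors isolated poly(A) RNA, sequenced it on an Illumina NovaSeq and deposited an FPKM value for every gene in each library, with gene coordinates and merged exon lengths. The submitters' processing notes name the builds GRCm38 and mm10, and the aligner and counting rule are not given in the sources used here. All value columns were mapped to samples by name (0 columns of other samples). Reads per gene were recovered from FPKM and gene length, and the library size used by the authors was 1.108 to 1.14 times the reads on genes in control, 0.929 to 0.936 times in LPS and 0.88 to 0.98 times in LPS + G-CDs libraries.

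The 11585 genes that reached 1 FPKM in 3 or more libraries were tested two-sided on log2(FPKM + 1) with limma 3.58.1 in R 4.3.3 (lmFit, eBayes with trend, 1 model of 3 groups) with Benjamini-Hochberg adjustment over all tested genes. On simulated data for LPS + G-CDs against LPS with 200 of 11585 genes changed, 54% of the 2-fold changes and 92% of the 4-fold changes were recovered, and unchanged genes made up 5.8% of the calls. The simulated noise was independent between genes, without the length trend of the real libraries, and genes with low mean values were not among those changed. These shares therefore need not hold for the real calls or for genes with low values. Python 3.11.15 with pandas 2.3.3, numpy 2.4.6 and matplotlib 3.10.9 prepared tables and plots.

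The members and lists were chosen with earlier results of these data known. Every member was named. A list gene was named if it passed in LPS + G-CDs against LPS or was among the 3 largest rises or 2 largest falls of its list with LPS at an adjusted p under 0.05. Cebpb, Cebpd and Cebpe were added outside this rule, beside Cebpa. For each tested member the gene with the highest r was found, and for Lcn2 the 3 highest. The values of 1 list gene named by this rule are not reported here.

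The groups share replicate numbers. Deviations from the group means of same-numbered libraries correlated at 0.103, 0.137 and 0.113 between LPS and control, above a limit of 0.1 in every pair, at 0.095, 0.08 and 0.143 between LPS + G-CDs and LPS, and at 0.28, 0.057 and 0.653 between LPS + G-CDs and control, so the limit pairs only the first comparison. No source says what a number stands for. The 18 alternatives were a pseudocount of 0.1, no filter, FPKM of at least 5, TPM, median-of-ratios scaling, the 6 libraries of a comparison alone, voom on the recovered reads, removal of a gene-length trend, a replicate block and each of the 9 libraries left out in turn.

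Gene models were from GENCODE mouse release M21, in which 53499 of 54409 shared genes had the deposited start and end. RefSeq promoter windows (GRCm38.p6) were matched for 7 of the 10 members, and those of the other 3 were not analysed here. Sequence was taken only from the RefSeq promoter windows and the M21 transcripts, and no protein sequence was used here.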

Additional observations from a re-analysis of the deposited data

How the results depend on the processing

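In LPS against control the number of members called (3 to 4), of all genes called (2478 to 4373) and of list genes called (30 to 41) stayed within 1.5 times the reported counts in all 18 alternatives. In LPS + G-CDs against LPS the counts were unstable. The 1 member called became 0 with a pseudocount of 0.1, 0 without a filter, 0 with the 6 libraries alone, 2 on the TPM scale and 2 with the length trend removed, and 0 to 2 with 1 library left out. The 57 genes called became 25 with the pseudocount of 0.1, 27 on the TPM scale, 25 with the 6 libraries alone, 91 with the length trend removed and 11 to 256 with 1 library left out (11 without LPS + G-CDs replicate 2, 256 without LPS + G-CDs replicate 1). The 5 list genes called became 1 with the pseudocount of 0.1, 3 at FPKM of at least 5, 1 on the TPM scale and 3 with the 6 libraries alone, and 1 to 7 with 1 library left out. In LPS + G-CDs against control the 2927 genes called became 1789 with the 6 libraries alone and 1914 to 3245 with 1 library left out. The difference of Cfp between LPS + G-CDs and LPS reversed to -0.12 on the TPM scale and to -0.17 with the length trend removed, and ran from -0.18 to 0.29 with 1 library left out. The cause of these shifts was not tested. C3 could not be tested at FPKM of at least 5. Voom on the recovered reads called 3716, 45 and 3029 genes in the 3 comparisons.

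With a replicate block, LPS against control gave 4 members and 4104 genes, LPS + G-CDs against LPS 1 member, 53 genes and 4 list genes (Cp at -0.93 with a limma adjusted p of 0.055), and LPS + G-CDs against control 4 members and 3347 genes. The block also took the call of Masp2 (limma adjusted p = 0.055) and no other reported call. Hp, Ptx3, C1qa and C1qb had at most 8 reads per library, and were not tested, and the effect of shared fragments on Cfb was not tested.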
